A study of Mus musculus with 8 samples.

Results

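Snf5 loss was examined in testicular germ cells of the mouse at E15.5, by comparing 2 male Snf5 CKO libraries with 2 male control libraries, 4 of the 8 libraries of the series. Snf5, listed under its symbol Smarcb1, is a core subunit of SWI/SNF, a complex that uses ATP to move nucleosomes. All the embryos carried the Oct4-EGFP transgene, by which germ cells were sorted from the gonads, and RNA-Seq was run on cDNA amplified from total RNA. Snf5 CKO germ cells were Snf5fx/Δ with TNAP-Cre, and the control libraries were pools of Snf5fx/+ and Snf5fx/Δ germ cells with those of Snf5fx/+ that also carried TNAP-Cre. The Cre recombinase is expressed from the Alpl locus, recombines in primordial germ cells over several days and removes the first exon of Snf5, so recombination need not be complete in all cells. Controls pooled several embryos, whereas Snf5 CKO libraries came from fewer, down to a single one. The labels give C57BL/6 as the strain background, and the study's methods describe a mixed background.

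The values are FPKM, in which fragments are counted relative to transcript length and library depth. All named loci whose FPKM averaged 1 or more across the 4 libraries were taken, which were 12368 of the 30216 loci in the table. Selenbp1, with a mean of 1.0001 FPKM, lay just inside this limit, and Lrrk1, with 0.9998 FPKM, lay just outside it. Differences were tested with limma on log2(FPKM + 1), and a gene was called lower or higher where the Benjamini-Hochberg adjusted p was under 0.05 and the log2 fold change was 1 or more in size. All fold changes are on this log2(FPKM + 1) scale, on which changes of weakly expressed genes come out too small. The n is 2 libraries per group throughout, and nothing ties a library to a separate pregnancy, so p-values measure the spread between these libraries only. The counts of fragments are unknown. Replicates 2 of both groups stood apart from replicates 1, since loci without a name took 35.4% to 42.1% of their FPKM against 5.46% to 6.56%. In bulk libraries such as these, fewer cells of a type and less RNA per cell cannot be told apart.

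Male germ cells stop dividing after they enter the testis cord, where Sertoli cells surround them, and become prospermatogonia. They switch off the pluripotency genes of primordial germ cells. They also restore DNA methylation and silence transposable elements, guided by piRNAs, which are small RNAs bound by PIWI proteins. Smarcb1 itself was at 141 and 167 FPKM in control and at 8.73 and 10.1 FPKM in Snf5 CKO, a log2 fold change of -3.90 with a standard error of 0.18 (limma, adjusted p = 0.0022). The value covers the whole gene, and reads on the deleted exon were not analysed here. Both Snf5 CKO libraries thus lay far below both controls, and some Smarcb1 RNA was left.

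The label of male germ cells was checked with 10 genes. Among them Smarcb1 is the deleted gene, so its fall says nothing about this label. Nanos2, an RNA-binding protein of the male fate, was at 61.2 and 71.9 FPKM in control and at 7.57 and 11.9 FPKM in Snf5 CKO. Piwil4, a nuclear PIWI protein, was at 166 and 132 FPKM against 3.17 and 3.53 FPKM. Dnmt3l, a cofactor of de novo DNA methylation, was at 102 and 108 FPKM against 1.54 and 1.95 FPKM. Tfap2c, a factor of primordial germ cells, went the other way, from 5.46 and 5.19 FPKM in control to 55.0 and 46.7 FPKM in Snf5 CKO. The control and Snf5 CKO libraries did not overlap for any of these 4 genes, as was so for 74.4% of all tested loci. Of the 10 genes 6 were lower, namely Nanos2, Piwil4, Dnmt3l, Smarcb1, Dnd1 and Mael, and 1, Tfap2c, was higher. The median log2 fold change of the 10, with the deleted gene included, was -2.23. General germ cell genes were present in every library, though not all at a like level. Dnd1 was at 469 and 729 FPKM in control and at 140 and 204 FPKM in Snf5 CKO, a log2 fold change of -1.78. Ddx4, an RNA helicase of germ cells, was at 565 and 458 FPKM in control and 300 and 237 FPKM in Snf5 CKO. At -0.93, this log2 fold change was too small to be called. Dazl, an RNA-binding protein, was at 697 and 606 FPKM against 997 and 789 FPKM. Pou5f1, whose regulatory region drives the transgene, was at 399 and 436 FPKM against 620 and 648 FPKM, and neither of these 2 genes was called.

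Markers of Sertoli cells moved with the genotype. Of 18 listed markers 17 were tested and 17 were called higher, with log2 fold changes of 1.09 to 2.73, and 15 to 17 were called when 1 library was left out. The lowest number came without control replicate 2, and 9 were called with no filter on low values. Amh, the anti-Müllerian hormone that these cells secrete, was at 17.4 and 16.5 FPKM in control and at 69.7 and 120 FPKM in Snf5 CKO. Cst9 was at 53.8 and 37.4 FPKM against 246 and 375 FPKM. Sox9, the factor that defines the cell type, was at 2.98 and 2.51 FPKM against 11.1 and 11.4 FPKM. Summed over the list, the level was 250 and 190 FPKM in control and 1003 and 1394 FPKM in Snf5 CKO, which is 5.44 times the control. No defining marker was at 0 in any library, and Fgf9 was below the limit on the mean. The Sertoli level therefore rose together with every gene group described as higher here, and its part in those results was not tested. The study lists the purity of the sorted male cells, and no Snf5 CKO value was below the lowest control value. Of the 1772 higher genes, 103 had a larger log2 fold change than any Sertoli marker.

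**Figure D1:**
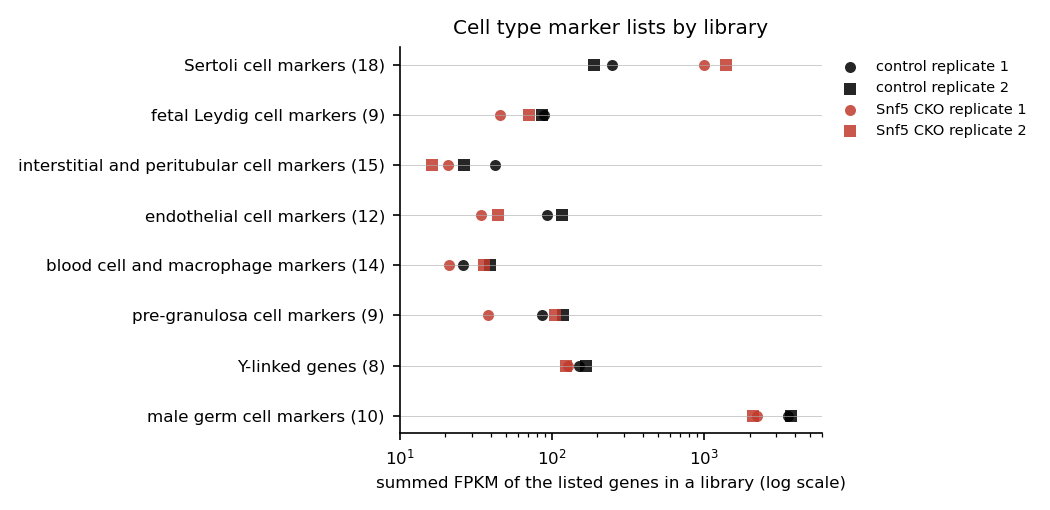
Summed FPKM of marker lists in each of the 4 libraries, on a logarithmic axis, with the number of listed genes in the table in parentheses; black marks control, red Snf5 CKO, circles replicate 1 and squares replicate 2. The Sertoli sum was 1003 and 1394 FPKM in Snf5 CKO against 250 and 190 FPKM in control, whereas the endothelial sum was lower in Snf5 CKO.

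The other cell types of the gonad showed no such rise as a list. Of 6 tested genes of the fetal Leydig cell list 2 were lower and 1 was higher. Cyp17a1, a steroid enzyme, fell from 20.2 and 11.6 FPKM to 2.71 and 0.819 FPKM. Hsd17b1 rose from 3.28 and 3.08 FPKM to 13.2 and 23.4 FPKM. Its log2 fold change of 2.16 lay within the range of the Sertoli markers, and which cells expressed Hsd17b1 was not tested. Among 6 interstitial and peritubular markers 3 were lower, such as Postn (log2 fold change -1.45), and 1 was higher. Among 5 endothelial markers 3 were lower. Of these lower markers, Postn, Col1a1, Flt1 and Tek passed the limit on the mean only through control, so that they could only be lower. Plvap, a protein of endothelial fenestrae, was at 65.5 and 85.7 FPKM in control against 11.6 and 18.4 FPKM in Snf5 CKO, while Cdh5, Kdr, Tie1 and Emcn were below the limit on the mean. Of 7 tested blood cell and macrophage markers 1 was lower and 2 were higher, and Lyz2 reached only 2.07 FPKM. Of 3 tested pre-granulosa markers 1 was lower, and Foxl2, the defining one, was below the limit. Of 7 Y-linked genes 1, Usp9y, was lower with a log2 fold change of -1.10, and without control replicate 1 this was -0.94 and not called. The part of these cell types in the results was not tested.

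Over all tested loci, 2160 were lower in Snf5 CKO, which is 17.5%, and 1772 were higher, which is 14.3%. These percentages are the background for every gene group below. A locus with a control mean under 1 FPKM passed the limit only through Snf5 CKO, so that it could only come out higher. Examples among the named genes are Krtdap, Mir6538, S100a13, Slc5a10, Fgf17, Fzd8, Junb, E2f8 and Lyz2. The reverse held for a locus with a Snf5 CKO mean under 1 FPKM. Plac8, Fabp9, Nme8, Snora7a, Mfng, Grhl2, Bcl11a, Spata22, Phlda2, Slc22a18, Postn and Usp9y are examples. These loci count in the shares here and below. At an unadjusted p under 0.05 there were 3683 loci with lower and 3089 with higher values. The libraries of the groups did not overlap at 39.9% of all tested loci with Snf5 CKO lower and at 34.5% with it higher, and at every called locus, which the call itself nearly fixes. With the replicate number as a block, all 2160 and all 1772 were called again. The lower loci took 13.7% and 11.1% of the FPKM of named loci in control and 4.16% and 2.77% in Snf5 CKO. The higher loci took 4.07% and 3.69% in control and 13.7% and 10.7% in Snf5 CKO. The median log2 fold change was -0.07. Scaling the libraries to a common sum moved this median by -0.16 and scaling by the median of ratios moved it by 0.14, and the share of higher calls, 45.1% with FPKM as deposited, was 34.8% and 54.1%. Each call leans on the spread shared between genes: with the spread of each gene alone, 370 lower and 279 higher loci were called, and all 47 list counts of 5 or more moved by over 1.5 times. With no filter on low values 24 of these 47 counts moved that far, among them the FGF, Kit and ERK genes (7 higher in place of 14) and the BCL2 family and caspase genes (2 higher in place of 11). List counts under 5 could also move by over 1.5 times when 1 library was left out. The background moved with the setting as well. With a common sum 1307 of the 12368 loci were higher, and with no filter 1083 of 23944. With a minimum of 5 FPKM 8777 loci were tested, and 1353 were lower. The list counts given below for these settings are to be read beside these numbers.

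**Figure D2:**
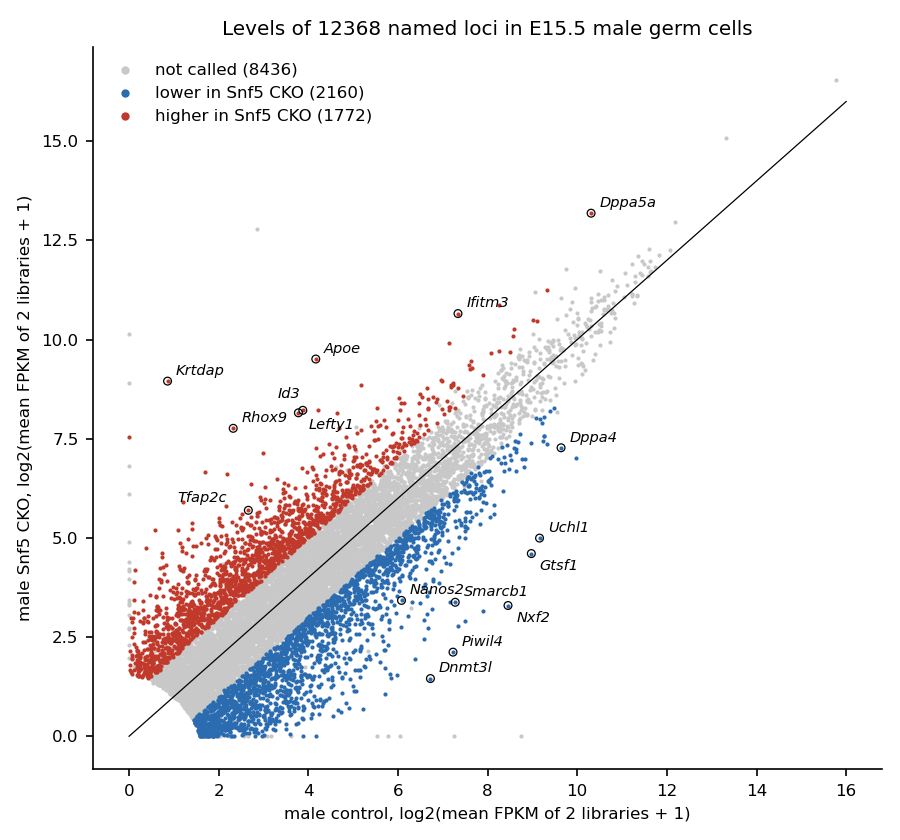
Level of each of the 12368 tested loci in male control (horizontal) and male Snf5 CKO (vertical), as log2 of the mean FPKM of 2 libraries plus 1, with the line of equal levels. Blue marks the 2160 loci called lower, red the 1772 called higher and grey the rest, and circles mark named genes such as Krtdap above the line and Nxf2 below it.

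The largest fall outside the genes that the study's figures show was that of Nxf2, an X-linked RNA export factor of the germline, at 373 and 327 FPKM in control and at 6.51 and 11.1 FPKM in Snf5 CKO, a log2 fold change of -5.20 with a standard error of 0.28 (limma, adjusted p = 0.0022). Morc1, which represses transposable elements in male germ cells, fell from 209 and 151 FPKM to 6.52 and 6.49 FPKM. Gtsf1, a zinc finger protein needed in the PIWI pathway, fell from 435 and 570 FPKM to 15.9 and 30.8 FPKM. The neighbouring values in the list were those of Rrad, a small GTPase-like protein, with a log2 fold change of -4.82, and Rhox10, a homeobox gene of prospermatogonia, with -4.70. Sohlh1, a helix-loop-helix factor of spermatogonia, fell from 51.1 and 62.1 FPKM to 1.44 and 2.14 FPKM. Uchl1, a ubiquitin hydrolase that marks early male germ cells, was one of the most abundant of all, at 513 and 628 FPKM in control and 24.6 and 37.2 FPKM in Snf5 CKO. The remaining large falls were those of Drc1 (-4.64), Plac8 (-4.51), Pramef12 (-4.44), Gm364 (-4.28), Fabp9 (-4.13), Nme8 (-4.13) and the metallothionein Mt2 (-4.06), on the log2 scale. For the small nucleolar RNA Snora7a, both Snf5 CKO values are listed at 0. Drc1 and Nme8 encode proteins of the axoneme, the core of cilia and sperm tails, and Fabp9 a fatty acid binding protein of the testis.

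The largest rise was that of Krtdap, a secreted protein known from keratinocytes, which was at 0.696 and 0.931 FPKM in control and at 353 and 636 FPKM in Snf5 CKO, a log2 fold change of 8.04 with a standard error of 0.32 (limma, adjusted p = 0.0022). Apoe, the lipid carrier, rose from 17.1 and 16.8 FPKM to 544 and 912 FPKM. Prap1, a secreted protein of epithelia, rose from 1.75 and 2.70 FPKM to 85 and 116 FPKM. The log2 fold changes of these genes were above 2.73, the largest among the listed Sertoli markers. The part of Sertoli cells in these rises was not tested. Fermt1, an activator of integrins, had a log2 fold change of 4.70, S100a13 of 4.57, the sugar transporter gene Slc5a10 of 4.34, Ak8 of 4.11, Galnt7 of 4.09, the growth factor Fgf17 of 4.07 and Crip1 of 4.0. Mir6538, a microRNA locus, is listed at 0 in both controls and was at 177 and 191 FPKM in Snf5 CKO. The listed span, chr12:26306794-26415583, is far longer than a microRNA, and which transcript gave these reads was not tested. FPKM of very short genes are uncertain, and this microRNA was not counted as a mature sequence.

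**Figure D3:**
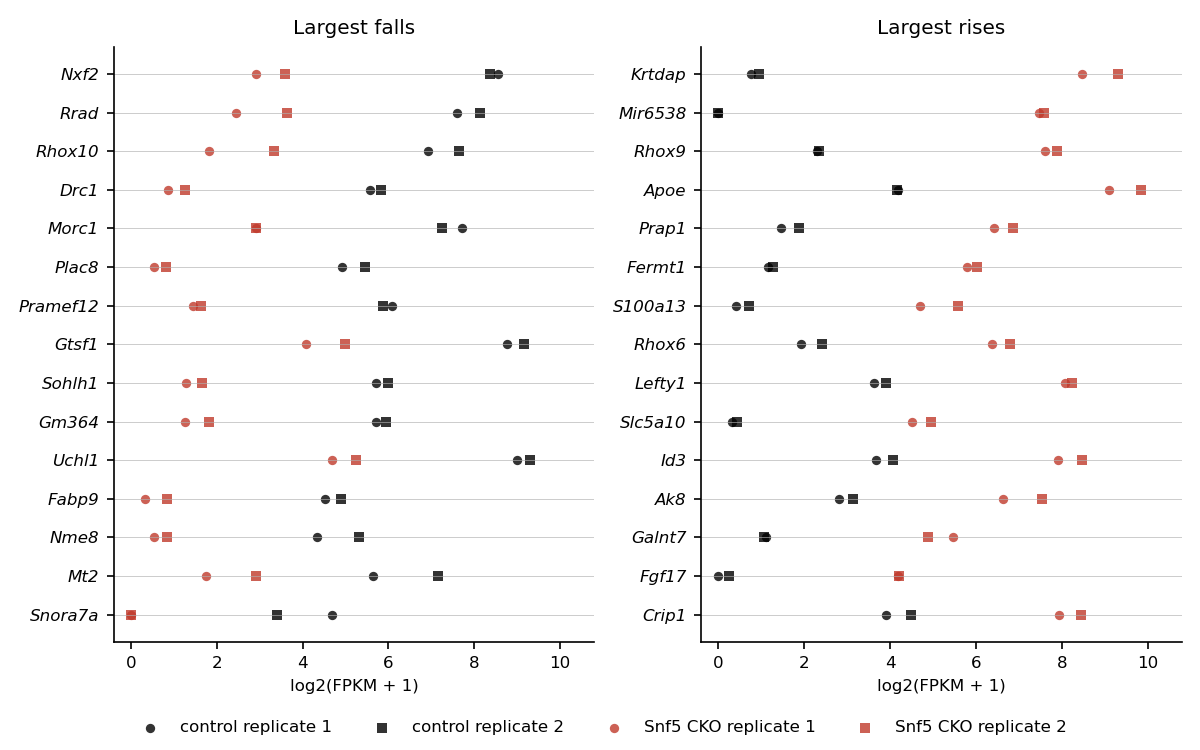
Log2(FPKM + 1) in each library for the 15 genes with the largest falls (left) and the 15 with the largest rises (right), without genes that the study's figures show; black marks control, red Snf5 CKO, circles replicate 1 and squares replicate 2. In each row both red points lie on one side of both black points, because only genes whose groups did not overlap were taken.

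Promoters of 4 of these genes are shown because the genes head the list of changes or share a motif. They are RefSeq sequences of GRCm38.p6, from 250 bases before to 50 after the annotated start, written 5′ to 3′ on the strand of the gene. Nxf2, Sohlh1 and Gm364 are members of the lower set whose window holds CACGTG, the E-box letters, and Krtdap holds the TATA letters TATAAA and the letters CCAAT. Capitals mark these letters, which were searched on both strands and do not overlap. Of all 32851 promoters in the RefSeq table, 7.15% hold CACGTG, 13.6% TATAAA and 37.4% CCAAT, and a match is a description of the letters only.
Nxf2, chrX:134964705-134965004, minus strand: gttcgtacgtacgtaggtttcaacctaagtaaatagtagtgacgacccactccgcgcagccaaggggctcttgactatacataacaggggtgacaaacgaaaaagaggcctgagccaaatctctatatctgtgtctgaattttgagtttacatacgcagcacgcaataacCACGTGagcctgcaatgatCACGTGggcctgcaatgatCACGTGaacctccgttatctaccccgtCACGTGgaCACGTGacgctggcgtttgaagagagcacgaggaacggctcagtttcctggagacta
Sohlh1, chr2:25847199-25847498, minus strand: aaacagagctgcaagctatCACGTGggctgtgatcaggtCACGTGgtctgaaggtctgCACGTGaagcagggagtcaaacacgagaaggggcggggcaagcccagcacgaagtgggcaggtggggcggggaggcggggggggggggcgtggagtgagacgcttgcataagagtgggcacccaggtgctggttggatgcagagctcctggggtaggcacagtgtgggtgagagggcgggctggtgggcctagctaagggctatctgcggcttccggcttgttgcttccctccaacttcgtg
Gm364, chrX:57408899-57409198, plus strand: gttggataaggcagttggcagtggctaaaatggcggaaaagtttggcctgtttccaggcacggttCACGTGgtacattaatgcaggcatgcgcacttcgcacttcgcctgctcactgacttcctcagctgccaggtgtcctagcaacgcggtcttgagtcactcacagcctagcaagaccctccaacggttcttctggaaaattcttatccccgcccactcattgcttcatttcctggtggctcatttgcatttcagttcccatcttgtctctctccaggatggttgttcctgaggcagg
Krtdap, chr7:30787655-30787954, plus strand: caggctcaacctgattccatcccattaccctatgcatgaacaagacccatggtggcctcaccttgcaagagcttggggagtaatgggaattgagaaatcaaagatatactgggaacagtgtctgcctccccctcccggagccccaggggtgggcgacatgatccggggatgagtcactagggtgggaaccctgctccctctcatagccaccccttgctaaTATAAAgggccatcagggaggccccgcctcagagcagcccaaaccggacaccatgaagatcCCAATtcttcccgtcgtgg
The E-box letters begin 80 bases before the start in Nxf2, 231 in Sohlh1 and 185 in Gm364. In Krtdap, the TATA letters begin 30 bases before the start.

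Among the most abundant called genes, Dppa4 and Dppa5a went opposite ways. Dppa4, a chromatin-bound protein of pluripotent and germ cells, was at 766 and 826 FPKM in control and 142 and 166 FPKM in Snf5 CKO. Dppa5a, an RNA-binding protein of pluripotent cells, was at 1140 and 1395 FPKM against 8244 and 10398 FPKM (log2 fold change 2.88, adjusted p = 0.0096 from limma), and was not called without control replicate 1 (2.73) or control replicate 2 (3.02). Ifitm3, a membrane protein of primordial germ cells, rose from 114 and 207 FPKM to 1157 and 2066 FPKM, and Gpx1, a glutathione peroxidase, from 259 and 351 FPKM to 1639 and 2134 FPKM. Defb19, a defensin known from Sertoli cells, rose from 137 and 141 FPKM to 542 and 1372 FPKM. Of the 10 most abundant lower genes and the 10 most abundant higher genes, 3 and 3 kept their call when each library was left out in turn.

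Pathways were then described by 48 gene lists, some of which share members. Genes of the germline programme were lower more often than the 17.5% of all loci. Of 20 tested piRNA pathway genes beyond those in the study's figures, 11 were lower and none was higher, with a median log2 fold change of -1.28 against -0.07 for all loci. Besides Gtsf1, Henmt1, which methylates the ends of piRNAs, fell from 25.3 and 26.7 FPKM to 1.05 and 1.24 FPKM, and Ddx25, an RNA helicase, from 266 and 267 FPKM to 43.2 and 47.1 FPKM. Tex15, which acts with PIWI proteins in silencing, fell from 84.4 and 62.1 FPKM to 7.67 and 6.68 FPKM. Of 33 meiotic prophase genes 13 were lower and 4 higher (median -0.49). Brdt, a testis bromodomain protein, had a log2 fold change of -3.52 and Spata22, a partner of a recombination complex, of -2.78, whereas Rec8, a meiotic cohesin that retinoic acid induces, rose by 1.65. Of 27 germline RNA regulators 7 were lower and 1 higher: Nanos3 had a log2 fold change of -2.16 and Tex19.2 of -2.23, and the cold shock protein gene Ybx3 rose by 2.2.

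Regulators of spermatogonia moved in both directions, with 12 of 30 lower and 7 higher (median -0.49). Egr4, a zinc finger factor, fell from 93.1 and 120 FPKM to 5.29 and 11.2 FPKM, and Tspan8, a tetraspanin of stem cells, from 29.8 and 31.8 FPKM to 1.17 and 1.68 FPKM. Id4 and Id3 encode related inhibitors of helix-loop-helix factors and went opposite ways. Id4, which marks spermatogonial stem cells, was at 26.7 and 42.7 FPKM in control and 2.29 and 4.64 FPKM in Snf5 CKO, and Id3 at 11.7 and 15.7 FPKM against 240 and 352 FPKM. Of 28 further genes of primordial germ cells 9 were lower and 8 higher, and of 35 further pluripotency genes 7 were lower and 13 higher (median 0.32). Klf2, a factor of naive pluripotency, rose from 5.24 and 6.00 FPKM to 79.1 and 83.5 FPKM. Sox15 (log2 fold change 3.08) rose with it. The lower count of the pluripotency genes was near the background, and was 3 with no filter and 4 with a minimum of 5 FPKM.

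X-linked genes were lower at 26.2% of 462 tested loci, against 17.1% of 11896 autosomal loci, and higher at 13.6% against 14.4%. Of 22 tested members of a list of X-linked germline genes, 16 were lower and none was higher, with a median of -1.73. Only 22 of the 48 listed genes in the table reached the limit of 1 FPKM, a gene that did so only through control had to be lower, and with a minimum of 5 FPKM 9 were lower. One member, Rbmxl2, lies on chromosome 7 and was not called. Mageb4, of a family expressed in germ cells and tumours, fell from 155 and 130 FPKM to 7.94 and 11.1 FPKM, Xlr5a from 45.6 and 43.5 FPKM to 2.60 and 3.82 FPKM, and the transketolase-like gene Tktl1 from 43.7 and 41.0 FPKM to 4.27 and 5.67 FPKM. Without the listed germline and Rhox genes, 23.8% of 433 X-linked loci were lower. The Xlr, Mage and Rhox genes have close copies, among which the authors' quantification may split reads.

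Rhox homeobox genes, a cluster on the X chromosome, divided within the cluster: of 8 tested genes 5 were higher and 2 lower. Rhox9 was at 3.94 and 4.06 FPKM in control and at 195 and 237 FPKM in Snf5 CKO, and Rhox6 at 2.83 and 4.30 FPKM against 82.1 and 110 FPKM. Both are known from primordial germ cells. Rhox10 was at 121 and 199 FPKM against 2.56 and 9.07 FPKM, and Rhox1 at 19.5 and 26.3 FPKM against 3.19 and 6.95 FPKM. Rhox5 and Rhox8, the first of which was at 217 and 323 FPKM against 668 and 955 FPKM, are also known from Sertoli cells, and the part of these cells in their rise was not tested.

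Signalling lists other than the retinoic acid one were higher more often than the 14.3% of all loci. The retinoic acid genes were higher in 15.4% and lower in 38.5% of cases. The clearest case was the Nodal and activin list, with 12 of 21 tested genes higher, none lower and a median of 1.62. Nodal is a ligand of the TGF-beta family that acts through the co-receptor Tdgf1 and the transcription factor Foxh1, and induces its own inhibitors Lefty1 and Lefty2. Lefty1 rose from 11.4 and 14.1 FPKM to 268 and 300 FPKM, Tdgf1 from 1.60 and 0.753 FPKM to 16.6 and 20.2 FPKM, and Foxh1 from 2.97 and 4.85 FPKM to 38.9 and 43.7 FPKM. The log2 fold changes of these 3 genes were above those of the listed Sertoli markers, and the part of Sertoli cells in them was not tested. The general effectors Smad2, Smad3 and Smad4 were not called, with log2 fold changes of 0.05, 0.36 and 0.04. Inhbb, an activin subunit that Sertoli cells also make, rose from 2.94 and 1.05 FPKM to 8.21 and 8.27 FPKM.

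FGF, Kit and ERK pathway genes were higher in 14 of 33 cases and lower in 1 (median 0.89). Dusp4 and Dusp6, phosphatases induced by ERK that inactivate it, rose from 4.55 and 2.45 FPKM to 42.4 and 23.5 FPKM and from 8.76 and 6.58 FPKM to 48.9 and 36.6 FPKM. The receptor Fgfr2 rose from 4.27 and 2.96 FPKM to 24.0 and 16.7 FPKM. Mapk3, the kinase ERK1, was the lower one, at 146 and 162 FPKM against 43.0 and 40.6 FPKM. The immediate-early genes, which growth factor signals and cell handling induce, were higher in 10 of 20 cases and lower in 1, with a median of 1.01. Junb rose from 0.948 and 0.619 FPKM to 13.1 and 24.6 FPKM, Ier2 from 5.83 and 8.19 FPKM to 49.2 and 66.2 FPKM, and Cyr61 from 4.91 and 1.52 FPKM to 33.7 and 42.7 FPKM. The time from dissection to lysis was not analysed here.

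Wnt pathway genes were higher in 14 of 34 cases and lower in 3 (median 0.38). Receptors were among the largest rises. Lgr4, a receptor for R-spondin, rose from 5.19 and 4.28 FPKM to 56.8 and 37.6 FPKM. Fzd8 rose from 0.451 and 0.582 FPKM to 10.6 and 10.5 FPKM, and Fzd10 from 1.09 and 1.02 FPKM to 11.9 and 10.1 FPKM. Fzd8 reached the limit on the mean only through Snf5 CKO and could only be higher. Tcf7l1, a repressive factor of the pathway, had a log2 fold change of 2.54. The classical target gene Axin2 was at 3.14 and 3.03 FPKM against 4.74 and 3.43 FPKM and was not called. Axin2 was chosen after its value was seen.

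In the Notch pathway 8 of 21 genes were higher and 1 lower, and 5 were higher with the libraries scaled to a common sum. Hes6 rose from 12.9 and 18.9 FPKM to 97.4 and 120 FPKM, and Mfng, which adds sugars to Notch, fell from 9.65 and 12 FPKM to 0.532 and 0.732 FPKM. Of 22 BMP pathway genes 7 were higher and 3 lower, and with a common sum 3 were higher. Smad6, an inhibitor that the pathway induces, had a log2 fold change of 1.55. Of 13 retinoic acid pathway genes 5 were lower and 2 higher, and 3 were lower without control replicate 1. Crabp2 and Crabp1, binding proteins of retinoic acid, fell from 37.3 and 32.0 FPKM to 1.55 and 2.05 FPKM and from 32.7 and 51.4 FPKM to 6.01 and 5.20 FPKM.

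**Figure D4:**
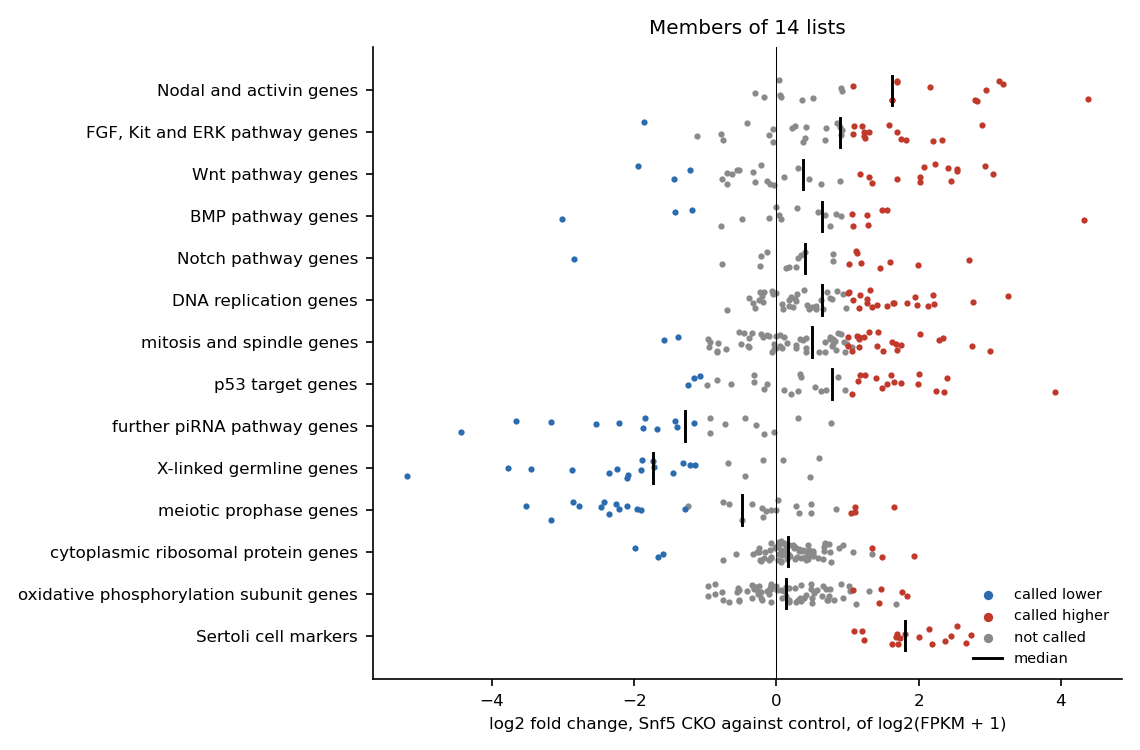
Log2 fold change (Snf5 CKO against control) of each tested member of 14 lists, with called lower genes in blue, called higher genes in red, the rest in grey and the median as a black bar. The Nodal and activin median was 1.62 and that of the X-linked germline genes -1.73, whereas ribosomal protein genes gather near 0; the vertical spread within a list carries no value.

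Genes of the cell cycle were called higher more often than the 14.3% of all loci, though most members of these lists were not called. Uncalled members include some that passed the adjusted p but not the limit on the fold change. Of the DNA replication genes, 28 passed the adjusted p with higher values and 21 were called. Of 56 DNA replication genes 21 were higher and none was lower, with a median of 0.64. Rrm2, the ribonucleotide reductase subunit made in S phase, rose from 8.57 and 5.91 FPKM to 87.4 and 66.5 FPKM. Tk1, a thymidine kinase, rose from 4.12 and 5.16 FPKM to 31.9 and 43.2 FPKM, and Gins2, a part of the replicative helicase, from 5.07 and 8.30 FPKM to 29.1 and 39.5 FPKM. Of 74 mitosis and spindle genes 21 were higher and 2 lower, and 13 were higher with a common sum. Plk1, a mitotic kinase, rose from 17.7 and 14.6 FPKM to 88.5 and 82.3 FPKM, Fbxo5, an inhibitor of the anaphase-promoting complex, from 7.18 and 6.19 FPKM to 65.7 and 56.2 FPKM, and Mki67 from 2.51 and 1.80 FPKM to 17.4 and 11.6 FPKM. Fetal Sertoli cells divide at this stage, and their markers rose in the same libraries. The part of these cells in the rises was not tested. By immunostaining of E15.5 testes, the paper reports higher percentages of Ki67-positive and pH3-positive germ cells in Snf5 CKO males than in control males. Of 25 genes of the RB family and the DREAM complex 8 were higher and 3 lower, and 5 were higher with a common sum. E2f8 had a log2 fold change of 2.38, and the inhibitor gene Cdkn2a of -1.62. Of 52 Fanconi and DNA repair genes 12 were higher, led by Exo1 (1.97) and Mus81 (1.92), and 1 was lower.

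Target genes of p53 were higher in 16 of 36 cases and lower in 3 (median 0.78). Dcxr rose from 1.30 and 2.01 FPKM to 28.8 and 51.6 FPKM, Phlda3, an inhibitor of AKT, from 5.85 and 6.32 FPKM to 26.8 and 39.4 FPKM, and Psrc1 from 1.20 and 1.16 FPKM to 8.97 and 11.3 FPKM. Mdm2, the ubiquitin ligase that p53 induces, was at 108 and 88.5 FPKM against 60.0 and 49.4 FPKM, with a log2 fold change of -0.83 that was too small to be called, and was chosen after its value was seen. Of 29 genes of the BCL2 family and caspases 11 were higher and 6 lower, but 7 were higher with a common sum or without control replicate 1. Bbc3, a protein that promotes apoptosis, had a log2 fold change of 1.99, and Casp9, an initiator caspase, of -1.70.

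Genes of chromatin showed no single direction. Among 29 SWI/SNF subunits 5 were lower (17.2%) and 6 higher (20.7%), with 4 to 8 higher when 1 library was left out. Besides Smarcb1, Smarcd3, an accessory subunit, fell from 22.8 and 22.3 FPKM to 4.56 and 4.42 FPKM, and Bcl11a from 5.21 and 3.86 FPKM to 0.361 and 1.0 FPKM. Of 39 Polycomb genes 5 were lower and 2 higher, with 8 lower under a common sum and 3 lower under the median of ratios. Ezh1, the H3K27 methyltransferase of resting cells, fell from 93.0 and 63.5 FPKM to 10.3 and 8.58 FPKM, and Scml2, a Polycomb protein of the male germline, from 52.6 and 41.4 FPKM to 9.52 and 8.35 FPKM. Of 26 genes of H3K9 methylation and heterochromatin 4 were lower and 2 higher. Kdm3a, a demethylase of H3K9, had a log2 fold change of -2.21, Ehmt2, which methylates H3K9, of -1.65, and Cbx1 of 1.64. Of 27 genes of defence against transposable elements 2 were lower and 3 higher, Zfp809 by 2.33.

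DNA methylation and demethylation genes other than those in the study's figures were higher in 7 of 21 cases and lower in 1, and 11 were higher without Snf5 CKO replicate 2. Dnmt3b, a de novo methyltransferase, rose from 10.2 and 7.66 FPKM to 42.5 and 40.4 FPKM, whereas its cofactor Dnmt3l fell. Tet1, which oxidizes methylcytosine, rose from 6.30 and 3.99 FPKM to 26.7 and 15.3 FPKM, and Gadd45g from 2.84 and 2.40 FPKM to 11.5 and 17.8 FPKM. Of 29 genes of histone variants and chaperones 9 were higher, 5 without control replicate 1, and 3 were lower. H2afx, which marks broken DNA once phosphorylated, rose from 65.1 and 67.9 FPKM to 310 and 361 FPKM. Of 36 imprinted genes 9 were lower and 4 higher. Phlda2 (log2 fold change -2.64) and Slc22a18 (-2.0), which lie in one domain on chromosome 7, were lower, and Gnas was higher (2.48). Of 52 Hox genes 2 reached the limit of 1 FPKM, and both did so only through control, so that they had to be lower: Hoxb7 went from 2.81 and 2.33 FPKM to 0.0664 and 0.135 FPKM and Hoxa7 from 1.73 and 2.57 FPKM to 0 and 0.0163 FPKM. The other 37 Hox genes in the table averaged below 1 FPKM.

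Metabolic lists differed in how many members were called. Of 26 glycolysis genes 7 were higher and 2 lower with a median of 0.01, a sign that depends on the scaling. Pfkl, a phosphofructokinase, rose from 4.78 and 3.53 FPKM to 25.7 and 23.4 FPKM, and Tpi1 and Pgk1 had log2 fold changes of 1.93 and 1.77. Of 76 subunits of oxidative phosphorylation 5 were higher and none was lower, which is fewer than the background. This count was 10 with the replicate block, 8 without Snf5 CKO replicate 1, 2 without control replicate 1 and 3 without Snf5 CKO replicate 2. Of 27 TCA cycle genes 3 were higher and 3 lower: Idh2, the mitochondrial isocitrate dehydrogenase, rose from 13.5 and 13.4 FPKM to 104 and 112 FPKM. Of 26 genes of cholesterol synthesis and uptake 4 were higher and none lower, with Pmvk, an enzyme of the mevalonate pathway, at a log2 fold change of 2.70.

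Among 34 genes of serine, one-carbon and polyamine metabolism 14 were higher and 3 lower (median 0.79). Sms, which makes spermine, rose from 6.27 and 8.46 FPKM to 49.3 and 56.4 FPKM, and Mthfd1, a folate enzyme, from 23.6 and 16.7 FPKM to 118 and 90.8 FPKM. Phgdh, the first enzyme of serine synthesis, fell from 145 and 168 FPKM to 37.9 and 37.5 FPKM. Of 33 genes of amino acid and other solute transporters 10 were higher, 6 with a common sum, and 3 were lower. Slc1a5, a glutamine carrier, had a log2 fold change of 2.29 and Slc38a4 of -2.43. Of 34 genes of the ATF4 stress response 5 were higher and 4 lower. Higher ones were 1 with a common sum and 3 without control replicate 1 or Snf5 CKO replicate 2. Trib3, a pseudokinase that ATF4 induces, was among the lower ones with a log2 fold change of -1.85. Of 34 genes of the unfolded protein and heat shock responses 4 were higher and 4 lower, led by Hspb1 (2.12) and Hspa4l (-1.65).

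Machinery that all cells share changed less often than the background. Of 83 cytoplasmic ribosomal protein genes 3 were higher and 3 lower, and the lower ones were Rpl10l, Rpl39l and Rpl3l, which are paralogues with restricted expression. Rpl10l, known from the testis, fell from 178 and 296 FPKM to 44.5 and 72.7 FPKM, and Rpl39l from 259 and 400 FPKM to 83.2 and 120 FPKM. The higher ones, Rpl10, Rpl11 and Rps27l, had log2 fold changes of 1.49, 1.34 and 1.93. These stayed above 1 but did not pass the adjusted p without control replicate 1 (1.29, 1.12 and 1.52), without control replicate 2 (1.69, 1.57 and 2.35) or without Snf5 CKO replicate 2 (1.15, 1.05 and 1.48), and 5 genes of the list were higher with the replicate block. Of 38 proteasome subunits 3 were lower and 1 higher. Psma8, a subunit of the germ cell proteasome, was at 40.3 and 48.3 FPKM against 14.7 and 16.3 FPKM. Of 49 ribosome biogenesis genes 8 were lower, near the background, and 2 higher: Heatr1 fell by 2.33 and Rrp12 by 1.73 on the log2 scale, and Dkc1 rose by 1.55. Of 47 genes of autophagy and lysosomes 5 were lower and 5 higher, 3 without control replicate 2. Tfeb, a factor that controls lysosome genes, rose from 1.85 and 1.69 FPKM to 12.3 and 16.3 FPKM.

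RNA turnover genes were called less often than the background. Of 26 genes of the CCR4-NOT complex and decapping 3 were lower and 2 higher. Edc4 and Edc3, which promote decapping, fell by 1.52 and 1.42 on the log2 scale. Of 17 writers, erasers and readers of m6A, 1 was lower and none was higher. This was Ythdf1, with a log2 fold change of -1.07, which was not called without control replicate 1 (-0.93), without Snf5 CKO replicate 2 (-0.97) or with the median of ratios (-0.90). Of 23 genes of antigen presentation and the interferon response 3 were lower and 3 higher, with Ifi27 at 207 and 254 FPKM against 55.8 and 79.7 FPKM. Of 25 circadian and nuclear receptor genes 5 were lower and 3 higher. Cry1, a repressor of the clock, had a log2 fold change of -1.71 and Dbp, a clock output factor, of 1.58.

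Adhesion genes divided as well. Of 35 genes of epithelial adhesion and junctions 11 were higher and 8 lower. Cldn3, a tight junction claudin, rose from 1.43 and 1.86 FPKM to 31.0 and 41.7 FPKM. Grhl2, a factor that maintains epithelial genes, fell from 11.6 and 9.69 FPKM to 0.634 and 0.780 FPKM, and Spint1, a protease inhibitor, had a log2 fold change of -2.65. Of 27 integrin and matrix genes 9 were higher and 3 lower. Fn1, fibronectin, fell from 53.9 and 24.8 FPKM to 10.1 and 4.23 FPKM and the laminin gene Lamb1 from 78.1 and 45.8 FPKM to 12.7 and 8.55 FPKM, whereas Col18a1 rose from 27.4 and 15.9 FPKM to 128 and 96.2 FPKM. Of 36 genes of the cytoskeleton and migration 12 were higher and 5 lower, with Ezr, which links actin to the membrane, at 11 and 9.04 FPKM against 92.6 and 72.6 FPKM and Tagln2 at 118 and 130 FPKM against 13.9 and 20.1 FPKM.

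**Figure D5:**
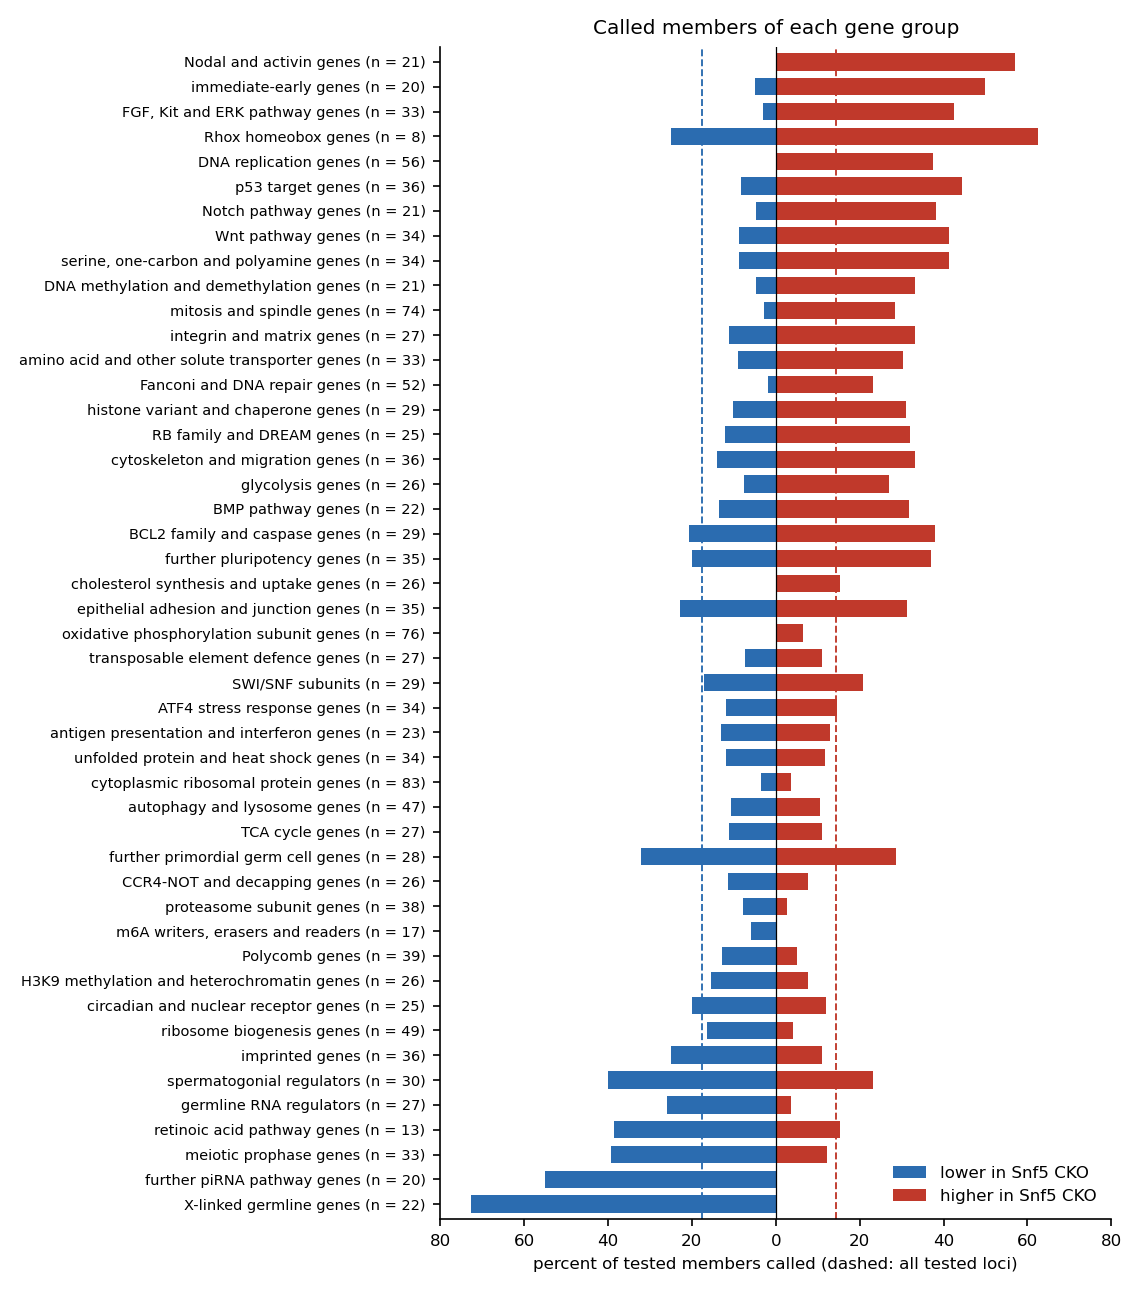
Percent of the tested members of each list with at least 8 tested genes that were called lower (blue, to the left) or higher (red, to the right) in Snf5 CKO, with the number tested in parentheses. Dashed lines mark the 17.5% and 14.3% of all loci, and the lists run from X-linked germline genes, with 16 of 22 lower, to Nodal and activin genes, with 12 of 21 higher.

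The medians of 14 lists changed sign between a common sum and the median of ratios and carry no direction: those of Polycomb, H3K9, transposable element defence, antigen presentation, circadian, histone variant, glycolysis, oxidative phosphorylation, TCA cycle, unfolded protein, cytoplasmic ribosomal, proteasome, autophagy and epithelial adhesion genes. The other lists kept the sign of their median under both. The genes named by the rule on size, level and list, all of them called, had adjusted p between 0.0013 and 0.050 from limma. The rule picks called genes, so that the upper end of this range was fixed by it.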

How the data were processed

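RNA-Seq libraries of sorted male germ cells at E15.5 were analysed from 1 deposited table, in which the authors gave FPKM per locus. The authors aligned reads with Tophat to UCSC mm10 and quantified them with Cufflinks; the labels give TopHat2 2.2.1 and Cuffdiff 2.1.1, and the study's methods give these version numbers the other way round. Per the file headers, the table also holds 8 columns of confidence bounds, which were not used. The female table was normalized separately and was not used.

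FPKM sums ranged from 682745 to 1554757. The number of fragments is not given, and low values fell on whole-read steps for only 33.4% to 53.5% of low loci, so reads were not recovered. limma 3.58.1 in R 4.3.3 (lmFit, and eBayes with trend) was run on log2(FPKM + 1) over the 12368 loci. The fit kept all named loci, where 1 locus per gene had been planned, and the locus with the highest mean stands for a gene in the lists; the planned form is given as an alternative. An exact permutation test of 2 against 2 libraries cannot go below p = 0.333 and was not used. The fit was tested on simulated data.

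Genes were named by a rule. It took the 15 largest falls and rises and the 10 most abundant genes in each direction, among called genes whose groups did not overlap. Up to 4 called members of each list and the 5 markers were added. The rule left out other genes shown in the study's figures, merged loci and loci with a failed status. Smad2, Smad3, Smad4, Inhbb, Rhox5, Rhox8, Rbmxl2, Sox9, Axin2, Mdm2 and the general germ cell genes were named outside it, after their values were seen. The genes in question, the lists and the tests were chosen with earlier results of these data known. The column names number the libraries of both groups as experiments 1 and 2. The change from replicate 1 to replicate 2 in control correlated across genes with that in Snf5 CKO (r = 0.595). This correlation alone does not establish that the numbers pair the samples. The main fit had no replicate term, and the replicate block is an alternative. Promoter sequences matched under 80% of tested genes, so motif shares over called genes are void and not given.

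Alternatives were another pseudocount (0.1), no filter and a minimum of 5 FPKM, scaling to a common sum or by the median of ratios, no trend, the replicate block, loci with status OK, and each library left out. After the data were seen, 1 locus per gene and no moderation of the spread were added. Results on some genes are not reported here.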

Additional observations from a re-analysis of the deposited data

How the results depend on the processing

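The lower and higher counts, 2160 and 1772, stayed within 1.5 times under most alternatives. With the replicate block they were 2238 and 1861, with a pseudocount of 0.1 they were 2434 and 2016, and with a common sum 2447 and 1307. With a library left out, they ranged from 1992 to 2266 lower and from 1604 to 1872 higher; the arm with 1 library was then assumed to vary like the other. A minimum mean of 5 FPKM left 1353 lower loci, from fewer loci tested, and no filter left 1083 higher loci; the cause was not tested. Without moderation of the spread, an alternative chosen after seeing the data, 370 lower and 279 higher loci were called, from 2 residual degrees of freedom. With the median of ratios the counts were 1805 lower and 2129 higher, so that higher calls outnumbered lower ones, and Polycomb genes went from 5 lower and 2 higher to 3 lower and 4 higher. No named gene changed the sign of its fold change, and these genes had been picked for called changes. Of the 233 named genes, 233 were called with the replicate block, 229 with a common sum, 230 with the median of ratios, 162 with no filter, 48 without moderation and 212 to 222 with a library left out. Of 47 list counts of 5 or more, no filter moved 24 by over 1.5 times, a common sum 8, a minimum of 5 FPKM 6, the median of ratios 1, the replicate block 1 and a library left out 1 to 5, the most being without control replicate 1. FPKM without fragment counts limit the low genes most.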

Other observations

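Some called loci were followed by a locus called in the same direction, though most were not. This was noticed after the values were seen and was not tested. Of 2158 lower loci with a following locus among those tested on the chromosome, 510 (23.6%) were followed by another lower one, against 17.5% of all loci, and of 1769 higher loci 366 (20.7%) by another higher one, against 14.3%. The longest run of higher loci held 8, at chr7:139957068-140116520 (mm10), and included Adam8, Tubgcp2, Caly, Prap1, Fuom and Echs1. The longest run of lower loci held 7, at chr2:164163619-164493323, and included Kcns1, Svs4, Svs5, Matn4 and Sdc4. A lower run at chr7:24668012-24877651 held 6 loci, among them Tex101, known from the surface of germ cells, and Dmrtc2. Krtdap lay in a run of 5 higher loci with Dmkn, Hamp2, Usf2 and Lsr, and Dppa5a in a run of 5 with Ooep and Gsta4. Neighbouring or overlapping loci can share reads where strand is not used in counting.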
